A study of Homo sapiens with 12 samples.

Results

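The genes described here are 10 that encode the enzymes of polyamine synthesis and breakdown and the proteins that control them: ODC1, AMD1, SRM, SMS, SAT1, SMOX, PAOX, OAZ1, OAZ2 and AZIN1. They were taken by symbol from the gene counts of 2 RNA sequencing experiments in LNCaP cells, a human prostate cancer line, and were chosen with earlier results of both experiments known. All 10 were listed in both tables, among 28008 and 25435 genes, and all 10 passed the filter on low counts, as did 14683 and 13836 genes in total. In the first experiment, LNCaP-ER cells, selected for resistance to the prostate cancer drug enzalutamide over 24 weeks of rising doses, carried a doxycycline-inducible short hairpin RNA against MUC1 (tet-MUC1shRNA). The 3 vehicle libraries and the 3 libraries labelled DOX came from these cells. The study's methods give 0.1% DMSO as vehicle and 500 ng/mL doxycycline (DOX) for its inducible lines. Treatment of the sequenced cells lasted 7 days. In the second experiment, 3 libraries of LNCaP cells stood against 3 of LNCaP cells that carried a MUC1-C transgene (LNCaP/MUC1-C OE). The labels call the controls wild-type and the count table calls them vector, and the methods describe a vector with a CMV promoter and GFP. The titles of the transgene samples read shMUC1-C OE, with the prefix used for hairpins, and they are treated here as overexpression. Doxycycline controls without the hairpin are not analysed here, so silencing and exposure to the drug cannot be told apart. Whether each line was a pool or 1 clone was not given.

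Polyamines (putrescine, spermidine and spermine) are small, positively charged molecules that bind nucleic acids and are needed for translation and growth. Ornithine decarboxylase (ODC1) makes putrescine, and spermidine synthase (SRM) and spermine synthase (SMS) lengthen it with aminopropyl groups from the S-adenosylmethionine that AMD1 decarboxylates. The acetyltransferase SAT1 and the oxidases SMOX and PAOX run the pathway in reverse, antizymes (OAZ1, OAZ2) send ODC1 to the proteasome, and AZIN1 binds antizyme in its place. The prostate makes and secretes polyamines in unusual amounts, and ODC1 is a textbook MYC target through the E-box CACGTG. Control of ODC1, AMD1, SAT1 and antizyme lies largely in translation and protein turnover, which RNA counts do not show.

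The E-box, searched as the letters CACGTG, which read the same on both strands, was present near the starts of ODC1 and SRM and is shown here because MYC and its partners were measured in both experiments. The sequences are RefSeq's for GRCh38.p14, written 5′ to 3′ on the gene's strand, with the E-box in capitals. The 123 bases of ODC1 at chr2:10447998-10448120 follow exon 1 of an ODC1 transcript in GENCODE, so that they are intronic in it, and they hold 2 E-boxes around an alternative RefSeq start. The 250 bases before the starts of SRM (chr1:11060019-11060268) and SAT1 (chrX:23782923-23783172) are given whole.
ODC1 (minus strand): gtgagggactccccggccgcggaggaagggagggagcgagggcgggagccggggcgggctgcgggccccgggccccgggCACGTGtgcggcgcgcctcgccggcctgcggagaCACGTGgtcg
SRM (minus strand): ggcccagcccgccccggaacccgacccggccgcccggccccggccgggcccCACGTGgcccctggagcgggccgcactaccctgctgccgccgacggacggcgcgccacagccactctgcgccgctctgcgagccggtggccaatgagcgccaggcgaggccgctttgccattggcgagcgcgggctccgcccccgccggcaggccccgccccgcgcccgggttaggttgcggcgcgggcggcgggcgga
SAT1 (plus strand): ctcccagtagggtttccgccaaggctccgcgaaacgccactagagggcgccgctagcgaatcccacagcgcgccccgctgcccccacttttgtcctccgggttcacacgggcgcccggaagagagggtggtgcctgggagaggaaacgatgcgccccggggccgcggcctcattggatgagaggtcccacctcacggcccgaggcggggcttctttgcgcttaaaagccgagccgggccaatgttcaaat
The E-box of SRM began 199 bases before the start, and the more upstream one of ODC1 began 29 bases before its alternative start. No CACGTG lay in the SAT1 window. Of the 7 members with a RefSeq promoter window of 300 bases, 2 held the motif, against 8.77% of 27305 genes with at least 1 window and 7.26% of 35116 windows. A match is a description of letters and not evidence of binding.

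The libraries of the first experiment held 28045894 to 45807989 counts and those of the second 13806856 to 19208944. MUC1, the target, had 26, 10 and 13 counts in the vehicle libraries and 3, 42 and 8 in those labelled DOX, so that DOX replicate 2 did not show the lower MUC1 that its label implies. That library also had 11.2% of listed genes at 0, against 28% to 38.1% in the other 5. It had counts for 14 of 14 markers of basal, neuroendocrine, fibroblast and leukocyte cells, summing to 22.8 CPM (counts scaled to a common library size, with TMM factors), against 4 to 12 of 14 markers and 9.7 to 14.2 CPM in the other 5. The part of these differences in the results was not tested, and values are given below with and without that library. In the second experiment MUC1 was at 1.47 ± 0.15 CPM in LNCaP and 712 ± 79.8 CPM in LNCaP/MUC1-C OE (SD, n = 3 each). The 9 luminal prostate markers summed to 4690 to 5910 CPM in the LNCaP-ER libraries, to 354 to 369 CPM in LNCaP and to 94.2 to 105 CPM in LNCaP/MUC1-C OE. In LNCaP/MUC1-C OE the defining markers KLK3, KLK2 and FOLH1 were at 0 in all 3 libraries, which goes against the labelled cell type. In that experiment the 14 markers of other cell types summed to 70.8 to 74.6 CPM in LNCaP and 58.7 to 67.3 CPM in LNCaP/MUC1-C OE. Nothing in the labels ties libraries to separate cultures beyond the statement that cells were grown in triplicate, so the spread between libraries may be technical.

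Levels can be compared between genes only per length, which the deposited transcript values scaled to a fixed sum per library (TPM) of the first experiment allow. In the vehicle libraries AMD1 was the most abundant of the 10, at 334 ± 17.4 TPM (SD, n = 3), and OAZ1 followed at 246 ± 19.4 TPM. These 2 ranked in this order in every vehicle library, as did SRM in the next place at 154 ± 33 TPM. ODC1 at 90.2 ± 24.5 TPM, SAT1 at 86.4 ± 13.2 TPM and SMS at 74.9 ± 7.78 TPM changed places between libraries and were not separated by their spread. AZIN1 (44.4 ± 2.02 TPM) and OAZ2 (36.6 ± 6.41 TPM) came next, and both oxidases were near the bottom of the scale, SMOX at 1.62 ± 0.15 TPM and PAOX at 1.2 ± 0.25 TPM. In the libraries labelled DOX, SAT1 moved from rank 6, 4 and 4 among the members to rank 2, 1 and 1, at 463 ± 102 TPM. The small nuclear RNA RN7SK took 24.6% to 37.7% of each TPM total, less in each library labelled DOX than in each vehicle library, so TPM levels were used for the order of genes and the differences below rest on counts.

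In the LNCaP-ER experiment, the acetyltransferase SAT1 was the member that differed most between the groups, and the antizyme OAZ2 was lower in every library labelled DOX than in every vehicle library. Among the 10 members, 2 passed an adjusted p of 0.05 in edgeR's quasi-likelihood test, SAT1 higher and OAZ2 lower, where 27.3% of all genes tested passed, 12.8% higher and 14.5% lower. Since the members were chosen with this contrast known, nothing is read from that count, and no p is given for a member. The groups did not overlap for 3 members, SAT1 higher and SMOX and OAZ2 lower, where 44.3% of all genes did not overlap, 21.2% higher and 23% lower. The median log2 fold change over the 10 members was 0.07, beside -0.02 over all genes tested. In bulk RNA, fewer cells of a type and less RNA per cell cannot be told apart.

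**Figure D1:**
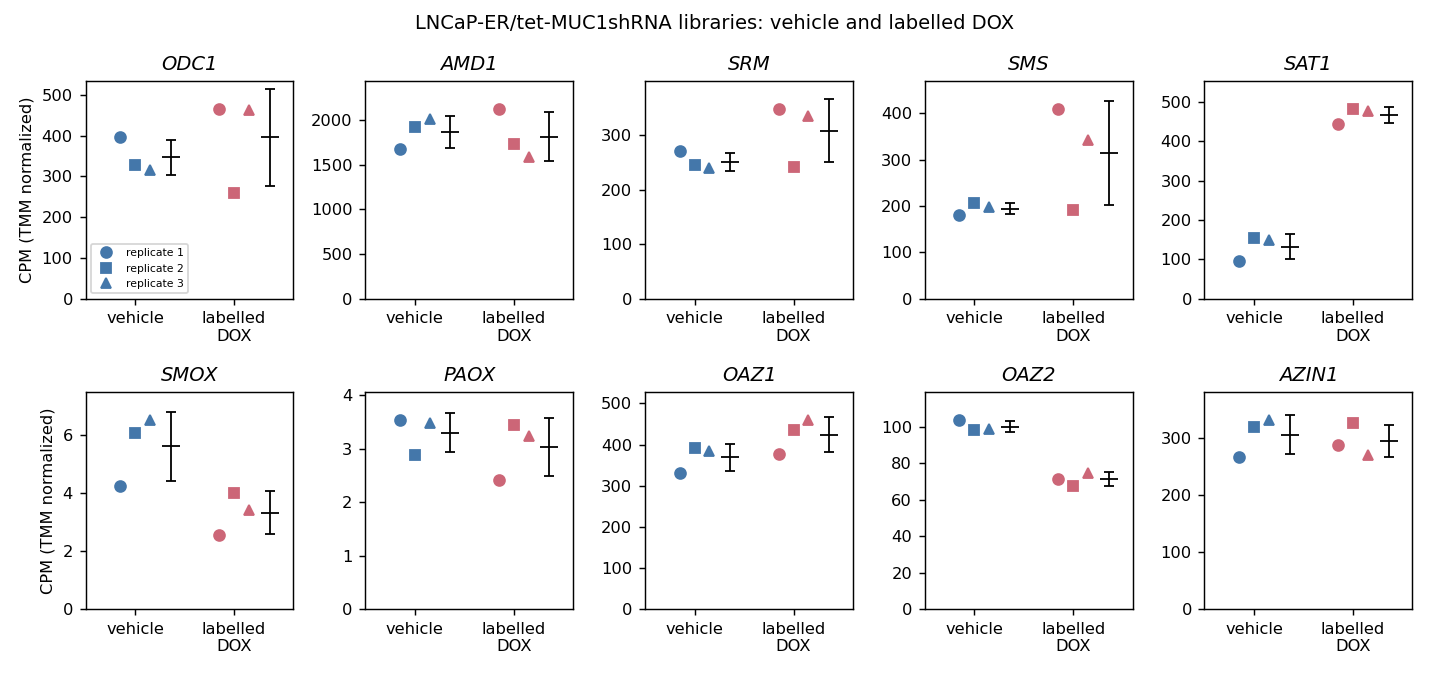
Each panel plots 1 gene's CPM after TMM normalization (y axis from 0) in the 3 vehicle libraries and the 3 libraries labelled DOX (x axis), with the symbol giving the replicate number and the black bar the mean and SD. SAT1 lies at 95.3 to 153 CPM with vehicle and 445 to 481 CPM in the libraries labelled DOX, and for ODC1, SRM and SMS the library labelled DOX replicate 2 (square) sits apart from the other 2.

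ODC1, the first enzyme of the pathway, was at 396, 329 and 316 CPM in the vehicle libraries and at 465, 259 and 464 CPM in those labelled DOX (replicates 1 to 3, TMM-normalized). The groups overlapped because the library labelled DOX replicate 2 lay below all vehicle libraries while the other 2 lay above them. The log2 fold change was 0.19 ± 0.21 (SE), 0.45 ± 0.11 without that library, and 0.05 without DOX replicate 1 or without DOX replicate 3. AMD1, which supplies the aminopropyl donor, was at 1672, 1920 and 2014 CPM with vehicle and 2121, 1738 and 1590 CPM in the libraries labelled DOX. Its groups overlapped throughout, with a log2 fold change of -0.04 ± 0.14.

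For both aminopropyl transferases, too, replicates 1 and 3 labelled DOX were the high ones. SRM, which makes spermidine, was at 271, 245 and 240 CPM with vehicle and 348, 242 and 335 CPM in the libraries labelled DOX. SMS, which makes spermine, was at 181, 205 and 197 CPM with vehicle and 408, 191 and 343 CPM in the libraries labelled DOX. In both genes replicates 1 and 3 labelled DOX lay above all vehicle libraries and replicate 2 lay among them. The log2 fold changes were 0.29 ± 0.14 for SRM and 0.69 ± 0.23 for SMS, 0.47 ± 0.09 and 0.98 ± 0.11 without replicate 2, and 0.19 ± 0.15 and 0.45 ± 0.22 without replicate 1. Without that library 6 members passed the threshold, ODC1, SRM, SMS and SAT1 higher and SMOX and OAZ2 lower, where 35.3% of all genes did, 18% higher and 17.3% lower.

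SAT1, which acetylates spermidine and spermine so that they can be oxidized or exported, was at 95.3, 153 and 148 CPM in the vehicle libraries and at 445, 481 and 477 CPM in those labelled DOX. All libraries labelled DOX, replicate 2 included, lay above all vehicle libraries. The difference was 3.53-fold, a log2 fold change of 1.82 ± 0.17, and 1.84% of all genes tested had a larger one. It was 1.83 ± 0.19 without replicate 2, and between 1.63 and 1.93 with any 1 library left out.

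The oxidases were low, and neither was higher in the libraries labelled DOX. SMOX, which oxidizes spermine directly, was at 4.25, 6.05 and 6.5 CPM (160 to 183 counts) with vehicle and at 2.55, 4.01 and 3.43 CPM (84 to 159 counts) in the libraries labelled DOX. These groups did not overlap, and the log2 fold change was -0.75 ± 0.26. PAOX, which oxidizes the acetylated polyamines that SAT1 makes, was at 3.54, 2.89 and 3.48 CPM with vehicle and 2.42, 3.44 and 3.23 CPM in the libraries labelled DOX, with a log2 fold change of -0.12 ± 0.25 and overlapping groups.

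Among the regulators of ODC1, OAZ2 stood at 104, 98.1 and 98.8 CPM with vehicle and at 71.6, 67.5 and 75 CPM in the libraries labelled DOX. The groups were well apart, with a log2 fold change of -0.49 ± 0.09 and of -0.42 ± 0.08 without replicate 2. On the deposited TPM, where the median of all genes shifted by 0.45 on the log2 scale, the log2 fold change of OAZ2 had the opposite sign, 0.06. OAZ1, the main antizyme, was at 331, 392 and 384 CPM with vehicle and 377, 436 and 460 CPM in the libraries labelled DOX, and AZIN1 was at 267, 320 and 332 CPM against 289, 326 and 271 CPM. Both overlapped between groups, with log2 fold changes of 0.20 ± 0.11 and -0.05 ± 0.12.

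With MUC1-C overexpression most members differed, in both directions, as did most genes tested: 8 of the 10 passed the threshold, where 67.3% of all genes tested did, 33.2% higher and 34.1% lower. AMD1, SRM and OAZ1 were higher and ODC1, SAT1, PAOX, OAZ2 and AZIN1 were lower, and these 8 were also the members whose groups did not overlap, beside 70.3% of all genes, 34.4% higher and 35.9% lower. The median log2 fold change of the members was -0.19, beside -0.01 over all genes. As in the first experiment, nothing is read from the count, because the contrast was known when the members were chosen.

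**Figure D2:**
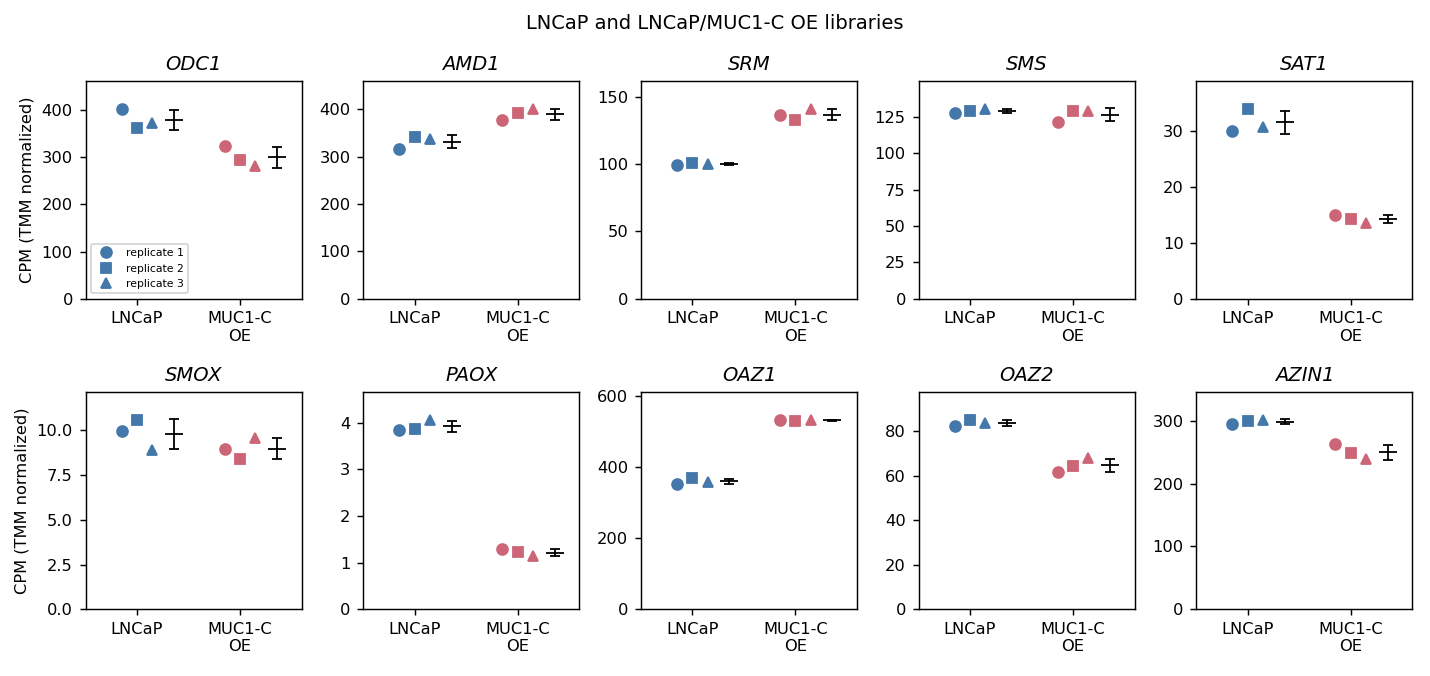
Each panel plots 1 gene's CPM after TMM normalization (y axis from 0) in the 3 LNCaP and the 3 LNCaP/MUC1-C OE libraries (x axis), with the symbol giving the replicate number and the black bar the mean and SD. SAT1 lies at 30 to 33.8 CPM in LNCaP and at 13.4 to 14.9 CPM in LNCaP/MUC1-C OE, OAZ1 is higher and PAOX lower in each LNCaP/MUC1-C OE library, and SMS and SMOX overlap.

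The synthesis enzymes did not move together. ODC1 was at 401, 361 and 373 CPM in LNCaP and at 324, 293 and 281 CPM in LNCaP/MUC1-C OE, a log2 fold change of -0.34 ± 0.06. AMD1 was at 316, 341 and 338 CPM in LNCaP and 377, 393 and 400 CPM with the transgene, a log2 fold change of 0.23 ± 0.05. It was 0.08, short of the threshold, when libraries were scaled by total counts alone, a scaling that shifted the median of all genes to -0.16. SRM was at 99, 101 and 100 CPM in LNCaP and at 137, 133 and 141 CPM in LNCaP/MUC1-C OE, a log2 fold change of 0.45 ± 0.05. SMS was at 128, 129 and 130 CPM in LNCaP and 122, 129 and 129 CPM in LNCaP/MUC1-C OE, with overlapping groups and a log2 fold change of -0.03 ± 0.05, which became -0.18 and passed the threshold under that same scaling.

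In the catabolic arm SAT1 and PAOX were both lower in all LNCaP/MUC1-C OE libraries. SAT1 was at 30, 33.8 and 30.7 CPM in LNCaP and 14.9, 14.2 and 13.4 CPM in LNCaP/MUC1-C OE, 2.22-fold lower, a log2 fold change of -1.15 ± 0.08. PAOX was at 3.84, 3.85 and 4.05 CPM (73 to 78 counts) in LNCaP and at 1.28, 1.22 and 1.14 CPM (16 to 19 counts) in LNCaP/MUC1-C OE, 3.22-fold lower, a log2 fold change of -1.69 ± 0.20. Its small counts leave it with the widest error of the 10. SMOX was at 9.95, 10.6 and 8.88 CPM in LNCaP and 8.93, 8.41 and 9.56 CPM in LNCaP/MUC1-C OE, overlapping, with a log2 fold change of -0.12 ± 0.11, which became -0.28 and passed the threshold when scaled by total counts alone.

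The regulators of ODC1 split. OAZ1 was at 354, 369 and 359 CPM in LNCaP and at 532, 531 and 533 CPM in LNCaP/MUC1-C OE, a log2 fold change of 0.56 ± 0.04 with little spread between libraries. OAZ2 was at 82.2, 84.9 and 83.7 CPM against 61.7, 64.2 and 67.8 CPM, a log2 fold change of -0.37 ± 0.05. AZIN1 was at 294, 300 and 301 CPM against 262, 249 and 239 CPM, a log2 fold change of -0.26 ± 0.05. None of the LNCaP and LNCaP/MUC1-C OE libraries overlapped for these 3 genes.

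**Figure D3:**
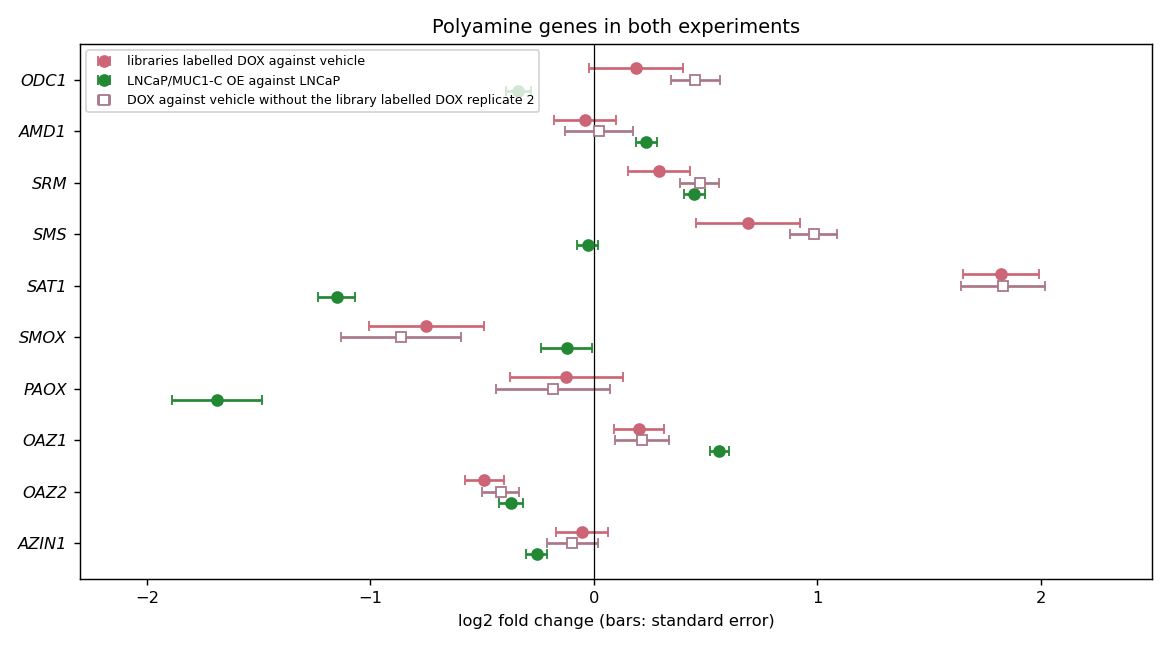
The log2 fold change (x axis) of each member (y axis) is drawn with its standard error for the libraries labelled DOX against vehicle, for the same comparison without the library labelled DOX replicate 2 (open squares) and for LNCaP/MUC1-C OE against LNCaP. SAT1 lies at 1.82 and -1.15 in the first and second experiment, ODC1 at 0.19 and -0.34, and OAZ2 at -0.49 and -0.37.

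The 2 experiments share no libraries, and their values stand side by side. SAT1 had a log2 fold change of 1.82 with DOX and -1.15 in LNCaP/MUC1-C OE, and ODC1 one of 0.19 and -0.34. OAZ2 was lower in both, at -0.49 and -0.37, SRM was at 0.29 and 0.45 and OAZ1 at 0.20 and 0.56. Whether a member's 2 effects differ was not tested, since the tables come from separately processed experiments in different cells.

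Ratios of 2 members within 1 library do not depend on how libraries are scaled, although they share the contrasts used to choose the members and are given as a description. The log2 ratio of SAT1 to ODC1 counts, the first step of breakdown to the first step of synthesis, was -2.06, -1.10 and -1.09 with vehicle and -0.06, 0.89 and 0.04 in the libraries labelled DOX. In the second experiment it was -3.74, -3.42 and -3.60 in LNCaP and -4.44, -4.36 and -4.38 in LNCaP/MUC1-C OE. Neither pair of groups overlapped, and the mean differences were 1.71 and -0.81.

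The log2 ratio of OAZ1 to AZIN1, the antizyme to its inhibitor, was 0.31, 0.29 and 0.21 with vehicle and 0.39, 0.42 and 0.76 in the libraries labelled DOX. It was 0.27, 0.30 and 0.26 in LNCaP and 1.02, 1.09 and 1.16 in LNCaP/MUC1-C OE. The ratio was higher in the libraries labelled DOX and with the transgene, without overlap, by 0.25 and 0.82 on average.

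The log2 ratio of SMOX to PAOX went from 0.74 ± 0.42 to 0.13 ± 0.08 (SD, n = 3 each) in the first experiment and from 1.32 ± 0.17 to 2.88 ± 0.17 in the second, without overlap in either. That of SMS to SRM went from -0.37 ± 0.18 to -0.03 ± 0.29 with overlap in the first and from 0.37 ± 0.01 to -0.11 ± 0.07 without overlap in the second. That of AMD1 to ODC1, chosen after the values were seen, overlapped in the first experiment (2.43 ± 0.31 and 2.24 ± 0.49) and went from -0.19 ± 0.14 to 0.38 ± 0.15 in the second.

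**Figure D4:**
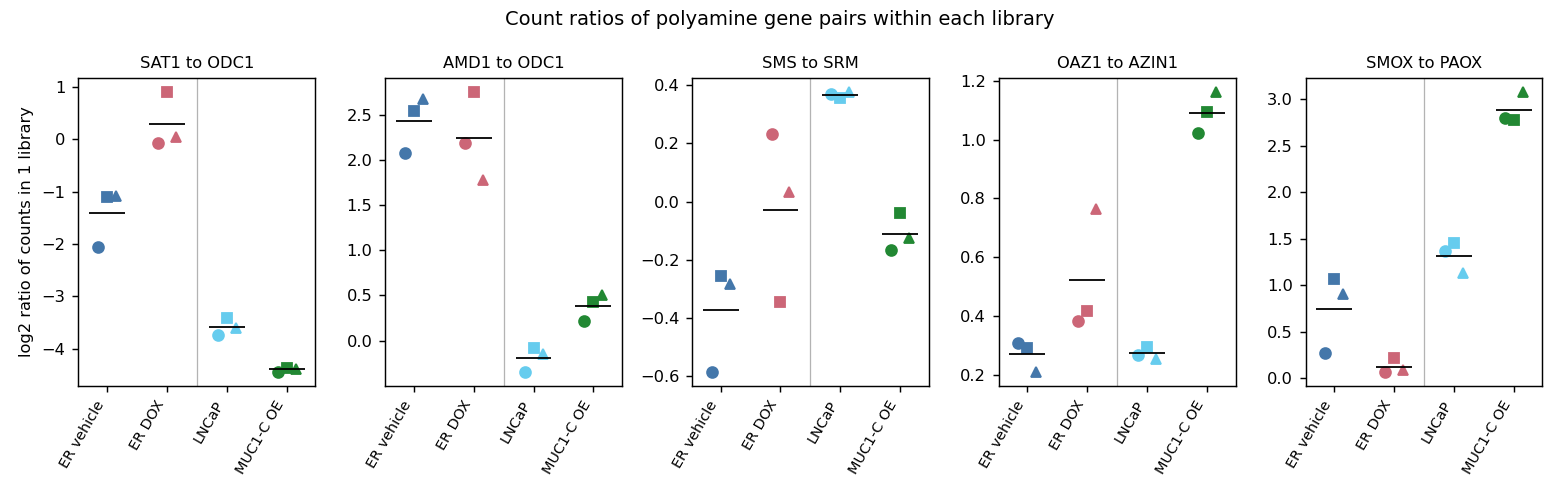
Each panel plots, for 1 pair of genes, the log2 ratio of their counts within each library (y axis) for the 4 groups (x axis: LNCaP-ER vehicle, LNCaP-ER labelled DOX, LNCaP and LNCaP/MUC1-C OE), with the symbol giving the replicate number and the line the group mean. The y axes differ between panels. SAT1 to ODC1 is higher in all libraries labelled DOX than with vehicle and lower in all LNCaP/MUC1-C OE libraries than in LNCaP, and OAZ1 to AZIN1 is higher in both.

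The control libraries of the experiments also stood at different levels, which can only be set side by side because the tables were made separately. In CPM of all counts, AMD1 was at 1692 to 1921 in LNCaP-ER vehicle and 334 to 358 in LNCaP, and SAT1 at 96.5 to 147 and 31.7 to 35.6. SRM was at 229 to 274 and 105 to 106, SMS at 183 to 197 and 135 to 137, and SMOX at 4.3 to 6.2 and 9.36 to 11.1. For ODC1 the ranges, 301 to 401 and 380 to 424, overlapped. Cell state, library and processing cannot be told apart here.

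The pathway reaches beyond these members, and 58 further genes were grouped by role into ornithine supply, the methionine cycle and salvage, hypusination, transport, further acetylation and oxidation enzymes, further antizyme family genes and regulators. In the LNCaP-ER experiment 44 of the 58 passed the filter, and 15 of them passed the threshold, 7 higher and 8 lower. That is 34.1% of those tested, beside 27.3% of all genes, with a median log2 fold change of -0.13. Without LNCaP-ER vehicle replicate 2, vehicle replicate 3 or the library labelled DOX replicate 3 the count dropped to 7, 5 or 6, and leaving out DOX replicate 2 gave 18. In the second experiment 42 passed the filter and 29 the threshold, 20 higher and 9 lower, which is 69% beside 67.3% of all genes, with a median of 0.12. These lists, like the members, were chosen with earlier results of these data known, so nothing is read from their shares. The p values given next come from edgeR (quasi-likelihood F test) and are Benjamini-Hochberg adjusted over all genes tested. They belong to the genes with the smallest p of each list and are given as a description.

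**Figure D5:**
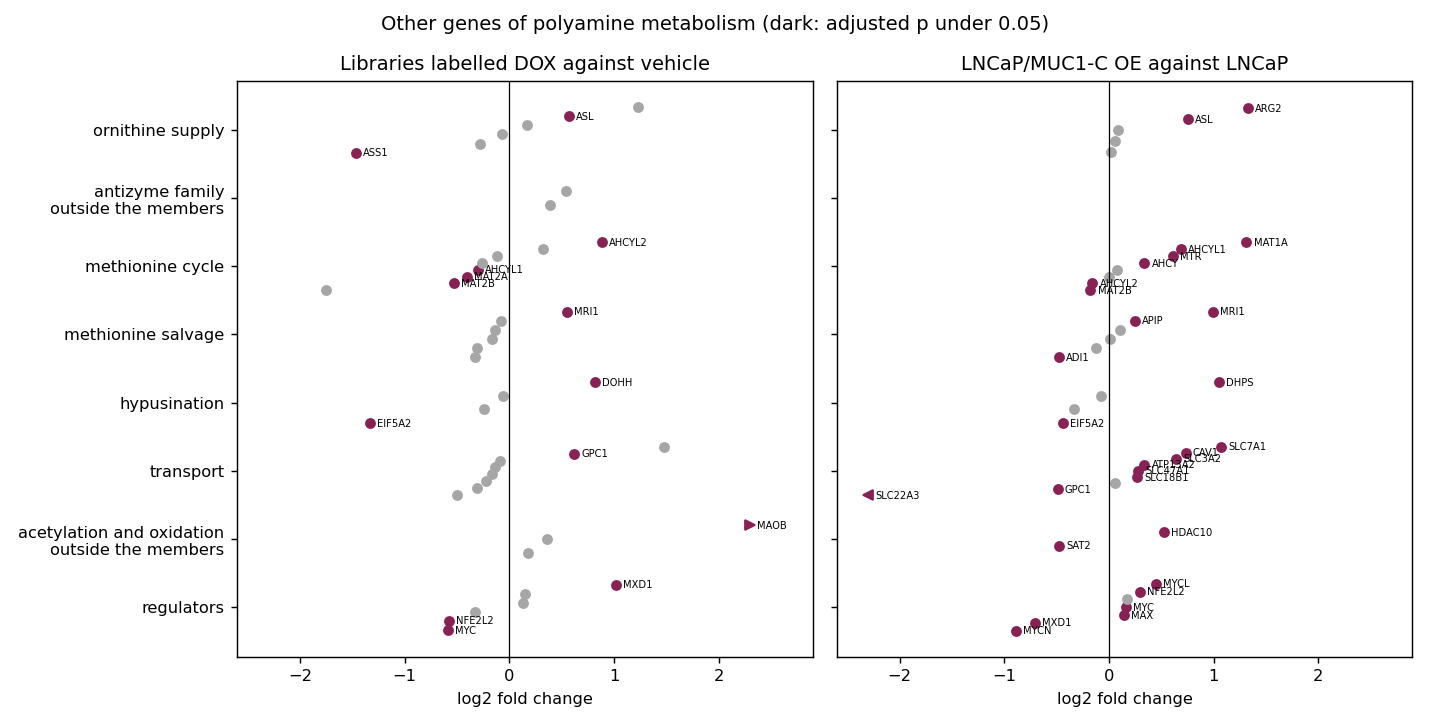
The log2 fold change (x axis) of the tested genes of polyamine metabolism outside the members, 1 regulator left out, grouped by role (y axis), is drawn for the libraries labelled DOX against vehicle on the left and LNCaP/MUC1-C OE against LNCaP on the right. Dark points passed the adjusted threshold and are named, and triangles mark 2 values beyond the axis, MAOB, with 5, 0 and 0 counts in the vehicle libraries, and SLC22A3, with 0 counts in all LNCaP/MUC1-C OE libraries.

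Spermidine is the source of hypusine, the modified residue of the translation factor eIF5A, which DHPS and DOHH build from it. EIF5A2, the less widespread form of that factor, was at 25.9, 26.6 and 25.7 CPM with vehicle and 9.98, 11.2 and 9.81 CPM in the libraries labelled DOX. It fell by 1.33 ± 0.12 on the log2 scale (adjusted p = 4.11e-04), with no overlap, and was also lower in LNCaP/MUC1-C OE, at a log2 fold change of -0.44 ± 0.09 (adjusted p = 2.87e-04). Of the enzymes, DOHH rose in the libraries labelled DOX by 0.82 ± 0.24 (adjusted p = 0.0333). DOHH lost its call without vehicle replicate 2 or 3 or DOX replicate 1 or 3 (adjusted p = 0.107 to 0.132). DHPS rose in LNCaP/MUC1-C OE by 1.05 ± 0.07 (adjusted p = 9.71e-10), from 22.9 to 27.3 CPM in LNCaP to 51.1 to 54.1 CPM. Of the 4 hypusination genes 2 passed the threshold in each experiment, 1 in each direction. EIF5A, the gene of the other form of the factor, did not pass in either experiment. Its means were 484 CPM with vehicle and 464 CPM in the libraries labelled DOX, overlapping, with a log2 fold change of -0.06 ± 0.11. They were 663 CPM in LNCaP and 631 CPM in LNCaP/MUC1-C OE, without overlap, with a log2 fold change of -0.07 ± 0.04.

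Ornithine comes from arginine through arginase, and argininosuccinate synthase (ASS1) and lyase (ASL) make arginine itself. ASS1 was at 47.6, 74.9 and 65.7 CPM with vehicle and 19, 31.1 and 18 CPM in the libraries labelled DOX, without overlap, and fell by 1.47 ± 0.23 on the log2 scale (adjusted p = 0.00324). ASL rose there by 0.57 ± 0.13 (adjusted p = 0.0127), a call lost without vehicle replicate 3 or the library labelled DOX replicate 3 (adjusted p = 0.0589 and 0.0573). In LNCaP/MUC1-C OE, ASL rose by 0.76 ± 0.11 (adjusted p = 1.37e-05), and the mitochondrial arginase ARG2 rose by 1.32 ± 0.07 (adjusted p = 5.52e-11), from 30, 33.3 and 27.6 CPM to 81.6, 70.7 and 75.4 CPM. Of this list 2 of 6 tested genes passed in the first experiment, 1 in each direction, and 2 of 5 in the second, both higher.

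S-adenosylmethionine, the substrate of AMD1, is made and recycled by the methionine cycle. Of 8 tested genes on its list, 4 passed in the LNCaP-ER experiment, 1 higher and 3 lower. The list includes AHCYL1 and AHCYL2, homologs of the hydrolase AHCY. AHCY itself did not pass there, with a log2 fold change of 0.33 ± 0.13 and groups that did not overlap. AHCYL2 rose by 0.89 ± 0.11 (adjusted p = 0.00122), from 37.7 to 44.4 CPM with vehicle to 68 to 82.2 CPM. MAT2B, the regulatory subunit of the synthetase, fell by 0.53 ± 0.12 (adjusted p = 0.0133), and AHCYL1 fell by 0.30 ± 0.09 (adjusted p = 0.0391), but on the deposited TPM their log2 fold changes were 0.03 and 0.25. MAT2B missed the threshold without vehicle replicate 2 or 3 or DOX replicate 3 (adjusted p = 0.0570 to 0.0647). AHCYL1 passed in 1 of the 6 fits with 1 library left out, the one without DOX replicate 1, and had adjusted p values of 0.0577 to 0.154 in the others. With the transgene 6 of 8 passed, 4 higher and 2 lower. AHCYL1 rose by 0.69 ± 0.05 (adjusted p = 1.10e-09), methionine synthase MTR by 0.61 ± 0.04 (adjusted p = 1.28e-09) and AHCY by 0.34 ± 0.06 (adjusted p = 5.98e-05).

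Each aminopropyl transfer leaves methylthioadenosine, which the salvage pathway turns back into methionine. Its isomerase MRI1 rose in both experiments, by 0.55 ± 0.16 in the libraries labelled DOX (adjusted p = 0.0312) and by 0.99 ± 0.07 in LNCaP/MUC1-C OE (adjusted p = 9.23e-10). The first of these calls was lost without vehicle replicate 2 or 3 or DOX replicate 1 or 3 (adjusted p = 0.110 to 0.123), while the second was kept in all 6 fits with 1 library left out, at 52 to 53.7 CPM in LNCaP and 93.2 to 116 CPM in LNCaP/MUC1-C OE. In the second experiment the dioxygenase ADI1 fell by 0.48 ± 0.05 (adjusted p = 4.25e-07) and the dehydratase APIP rose by 0.25 ± 0.07 (adjusted p = 0.00577), the latter lost when scaled by total counts alone. Of the 6 salvage genes 1 passed in the first experiment, higher, and 3 in the second, 2 higher and 1 lower.

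Among transport genes 1 of 8 tested passed in the LNCaP-ER experiment. It was GPC1, a glypican linked to polyamine uptake, which rose by 0.62 ± 0.16 (adjusted p = 0.0239) and missed the threshold without vehicle replicate 2 or 3 or DOX replicate 3 (adjusted p = 0.0937 to 0.105). With the transgene 8 of 9 passed, 6 higher and 2 lower. The arginine transporter SLC7A1 rose by 1.07 ± 0.07 (adjusted p = 1.38e-09), from 174, 169 and 169 CPM to 404, 343 and 327 CPM, and SLC3A2, the heavy chain of several amino acid transporters, by 0.64 ± 0.05 (adjusted p = 5.64e-09). SLC22A3, an organic cation transporter, had 44, 45 and 23 counts in LNCaP and 0 in each LNCaP/MUC1-C OE library. It passed the filter only through the LNCaP libraries. It is 1 of the 8 transport genes past the threshold, but no fold or p is given for it.

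Outside the members, the amine oxidase MAOB had 5, 0 and 0 counts with vehicle and 12, 10 and 47 in those labelled DOX, so few that it passed the filter only through the latter. It is 1 of the 15 genes past the threshold, but no fold or p is given for it, and its call was lost in 4 of the 6 fits with 1 library left out, those without vehicle replicate 2 or 3 or DOX replicate 1 or 3. With the transgene, SAT2, a relative of SAT1 with little activity on polyamines, fell by 0.48 ± 0.08 (adjusted p = 3.47e-05). The deacetylase HDAC10, which acts on N8-acetylspermidine, rose by 0.53 ± 0.14 (adjusted p = 0.00237), from 4.75 to 5.96 CPM to 7.11 to 8.31 CPM. Both antizyme relatives on the list were tested in the first experiment and neither passed, and in the second OAZ3, the one listed there, did not pass the filter.

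MYC, whose E-box is shown above for ODC1 and SRM, was at 375, 623 and 622 CPM with vehicle and 391, 376 and 313 CPM in the libraries labelled DOX. The groups overlapped, because vehicle replicate 1 lay with the libraries labelled DOX, and the log2 fold change was -0.59 ± 0.19 (adjusted p = 0.0491). The call was kept in 1 of the 6 fits with 1 library left out, the one without vehicle replicate 1, and the adjusted p was 0.0710 without DOX replicate 2 and up to 0.170 in the others. On the deposited TPM the log2 fold change of MYC was 0.0031. In LNCaP/MUC1-C OE, MYC was at 130, 121 and 123 CPM against 105, 115 and 115 CPM in LNCaP, a log2 fold change of 0.16 ± 0.05 (adjusted p = 0.0117), or 0.01 when scaled by total counts alone, and it missed the threshold without LNCaP replicate 1 (adjusted p = 0.0900). MXD1, a MAX partner that represses at the same E-box, rose by 1.02 ± 0.14 in the libraries labelled DOX (adjusted p = 0.00175), with all of these libraries (36.4 to 48.5 CPM) above all vehicle libraries (19.6 to 23.4 CPM). It fell by 0.71 ± 0.09 in LNCaP/MUC1-C OE (adjusted p = 2.19e-06). ODC1 and SRM, beside these values, had log2 fold changes of 0.19 and 0.29 in the first experiment and -0.34 and 0.45 in the second.

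NFE2L2, the oxidative stress factor that is known to act on SAT1, fell by 0.58 ± 0.10 in the libraries labelled DOX (adjusted p = 0.00501) and rose by 0.30 ± 0.06 in LNCaP/MUC1-C OE (adjusted p = 2.21e-04), although its log2 fold change on the TPM of the first experiment was -0.02. MYCL, a MYC relative, rose by 0.45 ± 0.12 in the second experiment (adjusted p = 0.00281). Of the regulators 4 of 7 tested passed in the first experiment, 1 higher and 3 lower, and 6 of 8 in the second, 4 higher and 2 lower.

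The genes whose log2 CPM, centred within each experiment, lay nearest to a member's over all 12 libraries were found among 9150 genes with a mean of at least 5 CPM in both tables. For SAT1 the nearest were CLU, WIPI1 and TP53INP2, at root-mean-square distances of 0.155, 0.205 and 0.239 on the log2 scale, where the median gene lay at 0.825. CLU, which encodes clusterin, had log2 fold changes of 1.84 and -1.17, WIPI1, an autophagy gene, 1.77 and -1.75, and TP53INP2, also of autophagy, 1.52 and -1.35. For ODC1 the nearest were TSTA3, GATA2 and FASTKD5, at distances of 0.0714, 0.0943 and 0.109, with a median gene at 0.326. TSTA3 makes GDP-fucose and had log2 fold changes of 0.22 and -0.38, and GATA2, a transcription factor, 0.08 and -0.16. Centring within an experiment keeps the difference between its groups, so genes near a member have log2 fold changes like the member's by construction. Their values are therefore no separate support and no evidence of shared control. These distances are a description of 12 libraries that share their depth and processing within an experiment.

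Some members share sequence with other genes. RefSeq lists 4 pseudogenes of AMD1, 3 of SRM and 1 each of ODC1, SMS and OAZ1, and how shared reads were assigned was not given in the sources used here, so the counts of these 5 genes are uncertain to that extent. OAZ1, OAZ2 and AZIN1 overlap genes on the opposite strand. The libraries were stranded, but the setting used in counting was not given.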

How the data were processed

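RNA from LNCaP-derived cells was sequenced from stranded mRNA libraries. Per the labels' processing notes, the authors used STAR and DESeq2 with GRCh38/hg38. Versions, the counter and the annotation were not given in the sources used here. The authors deposited raw counts per gene symbol, 1 column per library in a table for each experiment, and TPM for the LNCaP-ER experiment. In the tables, 12 columns of other cell lines were not used.

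Counts were tested with edgeR 4.0.16 in R 4.3.3 (TMM, filterByExpr, robust quasi-likelihood fit, Benjamini-Hochberg adjustment over all genes tested, threshold 0.05), each experiment on its own and without covariates. The scripts were tested on simulated data with 200 genes changed. Alternatives were DESeq2 1.42.0, other scalings and filters (none, or all libraries at 10 counts), an added size threshold of 1 on the log2 scale, replicate number as a block, leaving out each library, and limma 3.58.1 on log2 of the deposited TPM plus a pseudocount of 1 or 0.1, with and without a filter of 1 TPM in 3 libraries. CPM values use TMM factors. Depth limits the precision of genes with few counts, such as PAOX and MAOB.

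The members and lists were chosen with earlier results of these data known. Genes were named by rule: the members, MUC1, MYC and 1 other regulator, up to 3 genes per pathway list with the smallest p past the threshold in each experiment, and the 3 genes nearest to ODC1 and to SAT1. Outside the rule, EIF5A was named beside EIF5A2, and AHCY in the LNCaP-ER experiment beside its homologs. The other regulator is not reported here. Replicates of a group differed by more than sampling noise, since chi-square over its degrees of freedom was 2.2 to 61.7. Sequences and the motif search used RefSeq tables (GRCh38.p14). Promoter windows were matched for 7 of 10 members.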

Additional observations from a re-analysis of the deposited data

How the results depend on the processing

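SAT1 kept its direction and its side of the threshold under every alternative run in both experiments, and OAZ2 did so under all but those on TPM and the added size threshold of 1 on the log2 scale. Requiring an absolute log2 fold change of 1 left 988 of 14683 genes tested, 1 member and 4 wider pathway genes in the LNCaP-ER experiment. In the second it left 1917 of 13836 genes, 2 members and 5 wider pathway genes. On TPM, 5 members passed with a pseudocount of 1 and 5 with 0.1, all higher. Of all genes called in these fits 95% and 94.9% were higher, so nothing is read from the direction of the members. Without the TPM filter 2598 genes and 8 wider pathway genes passed. The share of called genes that were higher was 46.8% with TMM, 59.6% by total counts alone and 95% on TPM in the LNCaP-ER experiment, and 49.4% and 32.3% by total counts alone in the second. On TPM some log2 fold changes reversed, at pseudocounts of 1 and 0.1 and without the filter: OAZ2 (0.0646, 0.0663 and 0.0646), MAT2B (0.0336, 0.0343 and 0.0336), AHCYL1 (0.25 in each) and MYC (0.0031, 0.0029 and 0.0031), where the median of all genes shifted by 0.45, 0.52 and 0.18.

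With 1 library left out, 2002 to 5243 genes, 2 to 6 members and 5 to 18 wider pathway genes passed in the LNCaP-ER experiment. The count of genes was 2200 without vehicle replicate 2, 2002 without vehicle replicate 3 and 2067 with DOX replicate 3 left out, and the member count of 6 came without the library labelled DOX replicate 2. In the second experiment 8 members passed in each such fit. The log2 fold change of MUC1 in the LNCaP-ER experiment, which did not pass the threshold, ranged from -1.83 without the library labelled DOX replicate 2 to 0.62, with -0.09 without vehicle replicate 2, and was -0.62 with the replicate block. The causes were not tested. Without the TPM filter ASS1 and EIF5A2 also missed the threshold (adjusted p = 0.144 and 0.157).

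Replicate numbers did not pair the libraries: correlations of same-numbered deviations were 0.0868, -0.0028 and -0.0739 in the first experiment and -0.0292, -0.149 and -0.0374 in the second. With the replicate block 4226 genes, 3 members and 17 wider pathway genes passed in the first and 8965, 8 and 27 in the second.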
